A study of Mus musculus with 18 samples.

Results

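The genes described here are 10 genes of resident cardiac macrophages and of the uptake of dead cells. They were chosen by symbol, but with earlier results of these data known: Lyve1, Timd4, Folr2, Cd163, Mrc1, Cbr2, Stab1, Mertk, Axl and Gas6. All 10 were among the 24419 gene symbols of the expression table, and all 10 had an FPKM (fragments per kilobase of transcript, scaled to the mapped fragments of the library) of at least 1 in at least 1 mouse, the filter that 13333 symbols passed. The heart RNA came from 18 C57BL/6 mice, 8 weeks old, with no transgene or deletion named in any group. Acute myocardial infarction (AMI) was made by tying off the proximal left anterior descending coronary artery under pentobarbital, and infarcted left ventricle was taken 10 min, 1 h, 6 h, 24 h or 72 h later, with 3 mice at each time. The other 3 mice, labelled Control in the sample labels, are the sham mice of the study. Polyadenylated RNA was sequenced from whole tissue of each mouse, so a lower FPKM could come from fewer cells of a type or from less RNA per cell, which cannot be told apart here.

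Resident macrophages seed the heart before birth and keep themselves largely by local division, whereas an infarct draws in monocytes from the blood that become macrophages in the tissue. TIMD4, LYVE1 and FOLR2 are the usual surface markers of the resident cells, and CD163, MRC1 and STAB1 are scavenger receptors that they carry in abundance. Efferocytosis is the engulfment of dying cells: phosphatidylserine exposed on the dying cell is bound directly, as by TIMD4, or through the bridging proteins GAS6 and protein S, which link it to the receptor tyrosine kinases TYRO3, AXL and MERTK (the TAM receptors).

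Stretches of 250 bases upstream of an annotated transcription start are shown for 3 genes that were higher at 72 h, picked among those that held the motif below, and for 1 that was lower. They come from RefSeq on build GRCm38.p6, the same assembly as mm10, and are written 5′ to 3′ on the strand of the gene. Capitals mark GAGGAA or its reverse complement TTCCTC, a core that the macrophage factor PU.1 can bind, searched on both strands.
Mrc1, chr2:14229164-14229413, plus strand: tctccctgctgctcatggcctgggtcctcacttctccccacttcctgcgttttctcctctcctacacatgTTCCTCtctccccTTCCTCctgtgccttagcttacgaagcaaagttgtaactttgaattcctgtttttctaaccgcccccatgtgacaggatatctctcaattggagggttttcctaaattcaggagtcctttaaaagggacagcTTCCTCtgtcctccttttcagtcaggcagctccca
Stab1, chr14:31168642-31168891, minus strand: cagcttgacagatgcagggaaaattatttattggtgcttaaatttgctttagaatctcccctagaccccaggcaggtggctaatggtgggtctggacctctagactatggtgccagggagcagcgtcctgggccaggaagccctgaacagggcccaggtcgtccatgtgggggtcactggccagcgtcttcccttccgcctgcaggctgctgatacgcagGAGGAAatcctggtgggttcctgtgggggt
Cbr2, chr11:120732022-120732271, minus strand: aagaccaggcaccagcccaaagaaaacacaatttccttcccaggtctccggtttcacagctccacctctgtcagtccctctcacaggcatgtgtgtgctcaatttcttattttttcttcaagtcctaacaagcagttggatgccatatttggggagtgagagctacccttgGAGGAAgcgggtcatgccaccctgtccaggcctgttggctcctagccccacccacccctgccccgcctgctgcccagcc
Timd4, chr11:46810549-46810798, plus strand: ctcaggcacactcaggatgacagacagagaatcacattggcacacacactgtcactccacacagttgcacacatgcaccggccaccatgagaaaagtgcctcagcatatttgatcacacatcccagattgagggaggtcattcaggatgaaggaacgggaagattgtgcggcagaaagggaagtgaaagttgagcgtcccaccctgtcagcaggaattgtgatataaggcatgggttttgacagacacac
The Mrc1 stretch held 3 matches, those of Stab1 and Cbr2 held 1 each, and that of Timd4 held none. Among the 9 genes with an upstream stretch in the reference, 4 held a match (Axl, Cbr2, Mrc1 and Stab1), as did 23.3% of 32851 mouse promoters of that length. Of the 6 genes called higher at 72 h, Folr2 and Mertk held none. A core of the MAF recognition element, TGCTGA or TCAGCA on either strand, was in the stretches of Folr2, Stab1 and Timd4 and in 16.1% of all promoters. A match is only a description of the letters. The stretches of Stab1, Cbr2 and Timd4 reach a few bases into the gene positions given below. The stretch of Lyve1 was not analysed here.

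Values are FPKM as deposited, and no read counts come with them, so the depth of each library is unknown and the error of a value is the spread between the 3 mice. Log2 fold changes are differences of mean log2(FPKM + 1), so that changes at low FPKM come out too small. A gene was called where its limma p, adjusted over all genes tested, was under 0.05. An exact permutation test of 3 mice against 3 cannot go below p = 0.1. Each comparison with sham uses the same 3 sham mice. In the sham mice the 10 pan-macrophage genes (Csf1r, Adgre1, Cd68, Lyz2 and others) summed to between 202 and 228 FPKM, and those of cardiomyocytes to between 55765 and 59296. At 72 h these sums were 3950 to 5141 and 20429 to 25375 FPKM. FPKM are shares of a library, so these shifts stand beside every value below, and their part in the results was not tested.

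**Figure D1:**
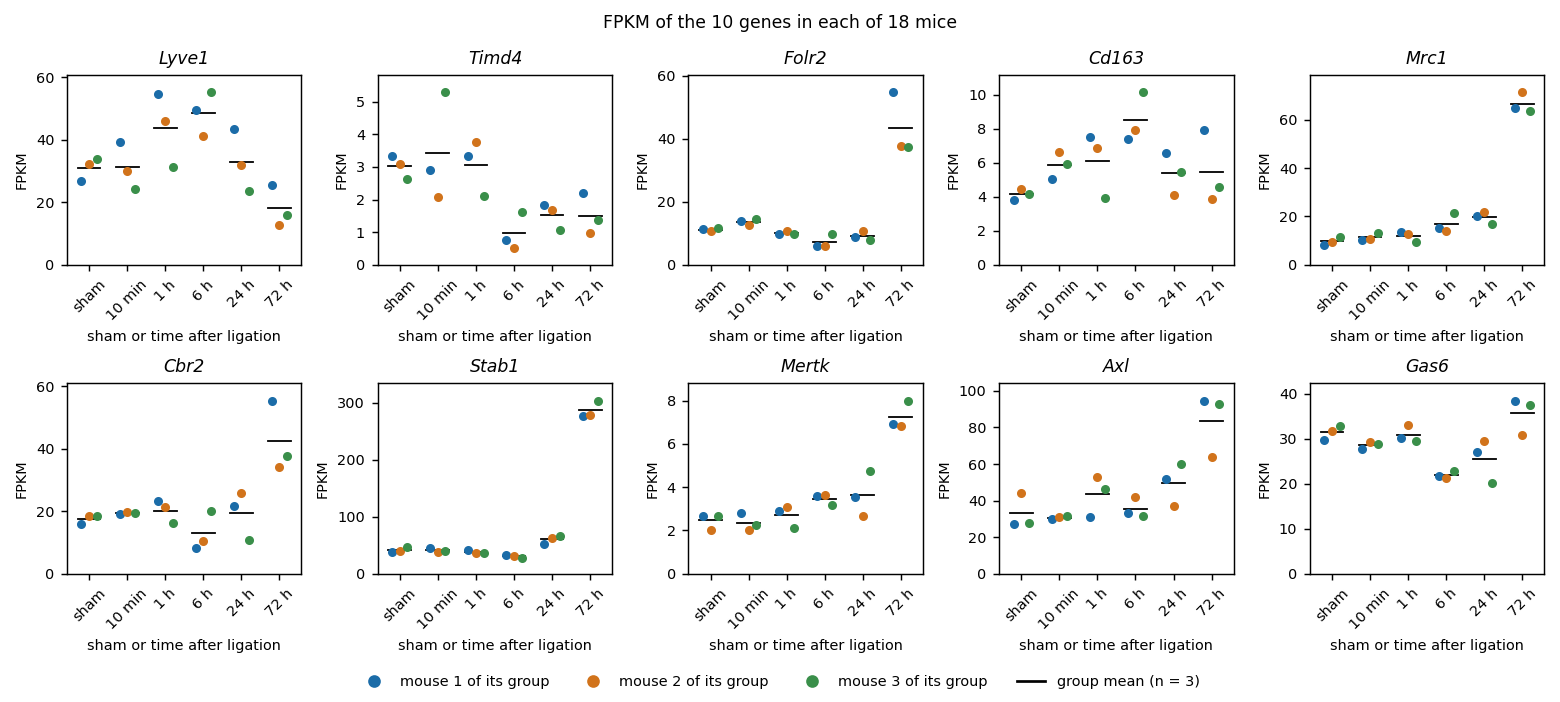
FPKM (vertical axes, each from 0) of the 10 genes in each of 18 mice, by sham and time after ligation; points are mice, coloured by their number within the group, and lines are means of 3 mice. Stab1 and Mrc1 at 72 h lie far above all earlier mice, and Timd4 is low from 6 h on. Lyve1 has its highest mean at 6 h, where its mice overlap those at 1 h.

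In the earliest hour none of the 10 genes was called. At 10 min 0 of 10 were called higher and 0 lower by limma, where 0.248% of all genes were higher and 0.0978% lower. Folr2 and Cd163 were the 2 with an unadjusted p under 0.05, beside 1955 of 13297 genes. Folr2 had 13.8, 12.7 and 14.4 FPKM at 10 min against 11.3, 10.7 and 11.6 FPKM in sham (log2 fold change 0.26, SE 0.07, limma adjusted p = 0.185). Cd163 had 5.03, 6.61 and 5.92 FPKM against 3.83, 4.45 and 4.18 FPKM (log2 fold change 0.41, SE 0.10, limma adjusted p = 0.161). In both genes all 3 mice at 10 min lay above all sham mice, as they did in Cbr2, while in Gas6 all 3 lay below. Over all genes tested, every 10-min mouse lay above every sham mouse in 12.2% and below in 8.15%. At 1 h 0 of 10 were again called in either direction, beside 0.669% of all genes higher and 0.0526% lower. Lyve1 alone of the 10 had an unadjusted p under 0.05, beside 1673 of 13300 genes. Its levels at 1 h were 54.6, 45.9 and 31.2 FPKM, which overlapped the sham mice. Without the third mouse at 1 h, the lowest of the 3 in 8 of the 10 genes, Cd163 was called higher (log2 fold change 0.67, limma adjusted p = 0.0252).

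At 6 h the 10 genes split. Lyve1, Cd163, Mrc1 and Mertk were called higher, 4 of 10 beside 11.6% of all genes, and Timd4, Folr2, Stab1 and Gas6 were called lower, 4 of 10 beside 16.8%. At 24 h Mrc1 and Stab1 were called higher, 2 of 10 beside 26.2% of all genes, and Timd4 lower, 1 of 10 beside 11.4%. At 72 h Folr2, Mrc1, Cbr2, Stab1, Mertk and Axl were called higher, 6 of 10 beside 53.1%, and Lyve1 and Timd4 lower, 2 of 10 beside 24.2%. Set against the background, the 72-h share is close to that of all genes in each direction. The sizes were larger: the median log2 fold change of the 10 genes at 72 h was 1.22, beside 0.29 over all genes tested. At 6 h and at 24 h the medians were -0.14 and 0.17, beside -0.08 and 0.13. Over all genes tested, every AMI mouse lay above every sham mouse in 18.6% at 6 h, 39.3% at 24 h and 55.1% at 72 h. Every AMI mouse lay below every sham mouse in 30.2%, 18.9% and 25.4%.

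The overall level of the table moved with the scaling. Under median-of-ratios scaling the all-gene median at 72 h went from 0.29 to 0.04 on the log2 scale, with 5243 genes higher and 4752 lower in place of 7081 and 3226, and under quantile normalization it went to -0.10, with 4386 and 5710. At 24 h the splits were 3496 genes higher and 1516 lower as deposited, 2538 and 2317 under median-of-ratios scaling, and 2215 and 2689 under quantile normalization. At 6 h they were 1543 and 2233, 1976 and 1515, and 1688 and 2119, in the same order. The 8 calls at 72 h were made under each of 14 other settings, scalings and left-out mice included. The 6-h calls were less steady: without the first sham mouse 1 gene was higher, without the second 2 were higher and 2 lower, and without the third 2 were lower. At 24 h 1 gene was higher and 0 lower without the first or the second sham mouse, and leaving out the second 24-h mouse gave 5 higher and 2 lower.

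**Figure D2:**
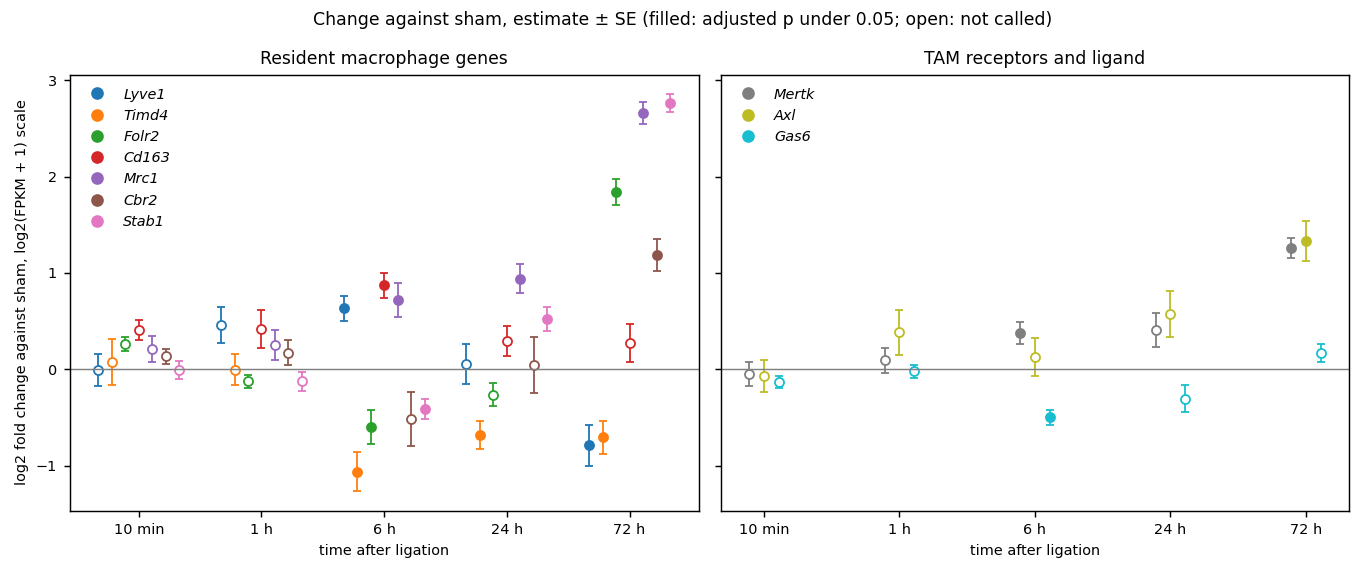
Log2 fold change against sham on the log2(FPKM + 1) scale (vertical axis) at 5 times after ligation, with bars of 1 SE from limma; filled points are called and open points are not. Calls start at 6 h in both directions, and at 72 h Stab1 and Mrc1 reach 2.76 and 2.66 while Lyve1 and Timd4 lie at -0.79 and -0.71.

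Timd4 encodes the phosphatidylserine receptor TIM-4, and it was low from 6 h on (chromosome 11, 46810786 to 46844333, plus strand). Sham mice had 3.35, 3.09 and 2.64 FPKM, and the 10-min and 1-h mice spanned 2.09 to 5.30 FPKM. At 6 h it stood at 0.764, 0.530 and 1.63 FPKM (log2 fold change -1.06, SE 0.20, limma adjusted p = 0.00952). All 3 mice at 6 h lay below all sham mice, as did those at 24 h and 72 h. At 24 h the mice had 1.84, 1.67 and 1.08 FPKM (log2 fold change -0.68, SE 0.15, limma adjusted p = 0.0148). Without the first sham mouse, or without the second, this 24-h call was lost, with adjusted p = 0.0648 and 0.0593. At 72 h they had 2.21, 0.964 and 1.36 FPKM (log2 fold change -0.71, SE 0.17, limma adjusted p = 0.00460). Timd4 had the lowest mean of the 10 genes at 6 h, 24 h and 72 h, and at these levels of a few FPKM the added 1 compresses the change most: its mean at 6 h was 0.322 of the sham mean. Under the other settings its log2 fold change at 6 h ran from -1.67 to -0.90 and it was called under all 14.

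Lyve1 encodes a hyaluronan receptor that marks a perivascular group of resident macrophages and is also the classical marker of lymphatic endothelium (chromosome 7, 110850607 to 110862953, minus strand). It rose and then fell. Sham mice had 26.8, 32.2 and 33.9 FPKM and the 6-h mice 49.5, 41.2 and 55.3 FPKM (log2 fold change 0.63, SE 0.13, limma adjusted p = 0.0137). All 3 lay above all sham mice, but the call was lost without the first sham mouse (adjusted p = 0.0538) and with all 18 mice in 1 fit (adjusted p = 0.0710). At 24 h the mice had 43.4, 32.1 and 23.6 FPKM, a spread that covered the sham mice (log2 fold change 0.05, limma adjusted p = 0.855). At 72 h they had 25.7, 12.9 and 15.9 FPKM, all below sham (log2 fold change -0.79, SE 0.21, limma adjusted p = 0.00852). From 6 h to 72 h, a comparison added after the values had been seen, the difference was -1.42 (SE 0.23, limma adjusted p = 0.000778), with all 3 mice at 72 h below all 3 at 6 h. Lymphatic endothelium was measured beside it with Prox1, Flt4, Pdpn, Ccl21a, Mmrn1 and Reln, whose summed FPKM ran from 31.7 to 53.7 in sham, 37.6 to 71.0 at 6 h and 72.2 to 96.0 at 72 h. At 72 h 2 of the 6 (Pdpn and Mmrn1) were higher and 0 lower by limma, beside 53.1% and 24.2% of all genes. Of the 6, 3 had an unadjusted p under 0.05, beside 10499 of 13329 genes. Their median log2 fold change was 0.25, beside 0.29 over all genes tested. None of the 6 was at 0 throughout a group. Prox1, the factor that defines lymphatic identity, had 7.53 ± 0.866 FPKM in sham and 7.54 ± 3.03 at 6 h (SD, n = 3), and Pdpn, which other stromal cells also express, had 4.13 ± 0.234 and 21.1 ± 8.78 FPKM. The part of lymphatic cells in the Lyve1 levels was not tested.

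Folr2 encodes folate receptor beta (chromosome 7, 101839988 to 101857190, minus strand) and did the reverse of Lyve1. Its 6-h levels were 5.84, 6.04 and 9.79 FPKM against 11.3, 10.7 and 11.6 FPKM in sham (log2 fold change -0.60, SE 0.18, limma adjusted p = 0.0411). All 3 lay below sham, but this call stood at the edge and was kept under 7 of 14 other settings. It was lost without the first, second or the third sham mouse (adjusted p = 0.115, 0.0973 and 0.122), without the first or second 6-h mouse (0.0971 and 0.0940), without a filter on low values (0.0709) and under median-of-ratios scaling (0.0512). At 24 h it stood at 8.96, 10.7 and 7.91 FPKM, overlapping sham (log2 fold change -0.27, limma adjusted p = 0.117). At 72 h it reached 54.9, 37.7 and 37.4 FPKM (log2 fold change 1.84, SE 0.14, limma adjusted p = 3.99e-06). Every mouse at 72 h was above every earlier mouse. Against 24 h the rise was 2.11 (SE 0.18, limma adjusted p = 0.000152).

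Within a mouse, the ratio of Lyve1 to Folr2 put the opposite courses side by side. In sham it averaged 2.77 ± 0.339 (SD, n = 3). The 6-h mice averaged 6.98 ± 1.42, the 24-h mice 3.60 ± 1.08 and the 72-h mice 0.411 ± 0.0642. The lowest 6-h mouse had 5.65 and the highest sham mouse 3.01, and the highest 72-h mouse had 0.468. Lyve1 was thus the more abundant transcript per length in every mouse up to 24 h and the less abundant in every mouse at 72 h. Timd4 to Folr2 fell from 0.271 ± 0.0383 in sham to 0.128 ± 0.0396 at 6 h and 0.0341 ± 0.00761 at 72 h, with no overlap between the groups. These ratios are given as a description, without a test.

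**Figure D3:**
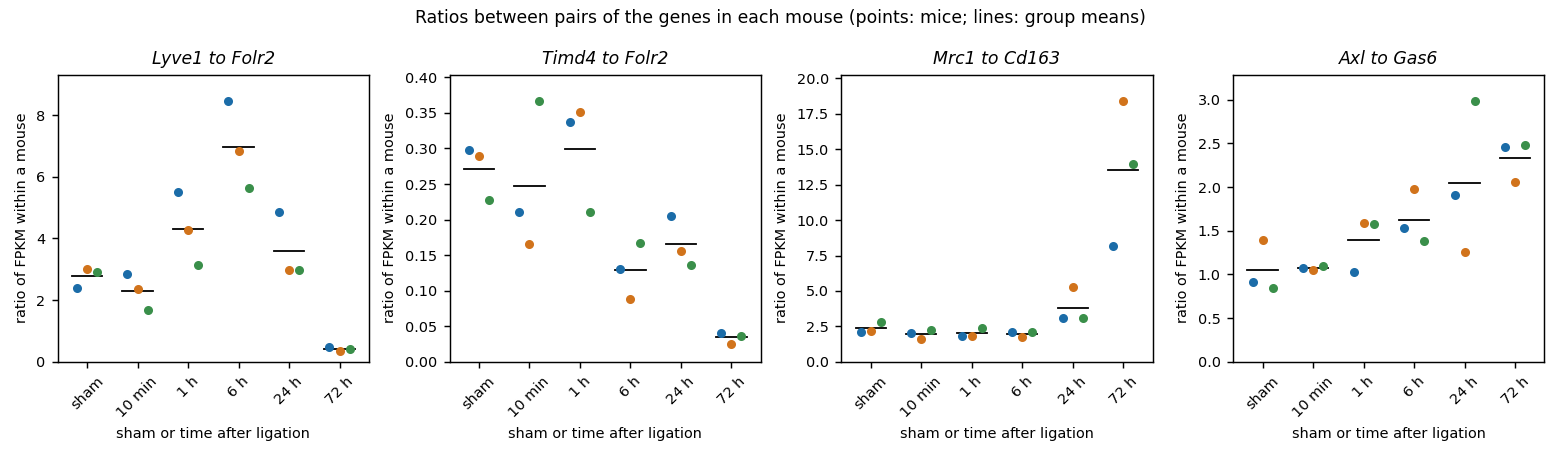
Ratio of FPKM between pairs of the genes within each mouse (vertical axes, from 0) by sham and time after ligation; points are mice (blue, orange and green for mouse 1, 2 and 3 of a group) and lines are means of 3. The Lyve1 to Folr2 ratio is highest at 6 h and at 0.341 to 0.468 in the 72-h mice, and the Mrc1 to Cd163 ratio is highest at 72 h, where it spreads from 8.17 to 18.4.

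Stab1 and Mrc1 had the largest changes of the 10 genes. Stab1 encodes stabilin-1, a scavenger receptor that also binds phosphatidylserine (chromosome 14, 31139017 to 31168651, minus strand). Sham mice had 37.6, 39.9 and 46.9 FPKM and 6-h mice 32.9, 31.4 and 28.2 FPKM (log2 fold change -0.41, SE 0.10, limma adjusted p = 0.0260). The 6-h mice all lay below sham, and the call was lost without the second or the third sham mouse (adjusted p = 0.0721 and 0.0922), without the third 6-h mouse (0.0503) and under median-of-ratios scaling (0.0731). At 24 h they had 52.2, 62.3 and 65.5 FPKM, all above sham (log2 fold change 0.52, SE 0.12, limma adjusted p = 0.0184), a call lost without the first or second sham mouse (adjusted p = 0.0765 and 0.0728). At 72 h they had 278, 278 and 304 FPKM (log2 fold change 2.76, SE 0.09, limma adjusted p = 4.34e-08), 6.91 times the sham mean and the highest level of the 10 genes. The spread among these 3 mice was small beside the change.

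Mrc1 encodes the mannose receptor CD206 (chromosome 2, 14229414 to 14332023, plus strand) and rose at each of the 3 later times. Sham mice had 8.12, 9.60 and 11.6 FPKM and 6-h mice 15.3, 14.1 and 21.2 FPKM (log2 fold change 0.72, SE 0.18, limma adjusted p = 0.0233). That call was lost without the first or second sham mouse (adjusted p = 0.0844 and 0.0747). At 24 h the levels were 20.03, 21.9 and 16.9 FPKM (log2 fold change 0.94, SE 0.15, limma adjusted p = 0.00659). At 72 h they were 64.7, 71.5 and 63.4 FPKM (log2 fold change 2.66, SE 0.11, limma adjusted p = 1.71e-07), 6.81 times the sham mean. At all 3 times every AMI mouse was above every sham mouse, while the 24-h and 6-h mice overlapped (difference 0.22, limma adjusted p = 0.394).

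Cd163 encodes the receptor that clears haemoglobin bound to haptoglobin (chromosome 6, 124304636 to 124330529, plus strand). At 6 h it had 7.39, 7.95 and 10.2 FPKM against 3.83, 4.45 and 4.18 FPKM in sham (log2 fold change 0.87, SE 0.13, limma adjusted p = 0.00401). All 3 lay above sham, and the call was made under all 14 other settings. It was not called at 24 h, with 6.56, 4.13 and 5.43 FPKM, or at 72 h, with 7.92, 3.88 and 4.55 FPKM (log2 fold change 0.28, 95% interval -0.18 to 0.73, limma adjusted p = 0.234). The second mouse lay within the sham range at both times. The ratio of Mrc1 to Cd163 was 2.35 ± 0.366 in sham, 1.98 ± 0.178 at 6 h and 13.5 ± 5.15 at 72 h (SD, n = 3), and no 72-h mouse overlapped sham.

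Cbr2 encodes a carbonyl reductase that is used as a marker of resident macrophages (chromosome 11, 120729485 to 120732025, minus strand). Its 6-h mice disagreed, with 8.09, 10.4 and 20.2 FPKM against 15.8, 18.5 and 18.6 FPKM in sham (log2 fold change -0.52, SE 0.28, limma adjusted p = 0.202). The third 6-h mouse stood above sham and the others below, and without it the difference was -0.87 with adjusted p = 0.00729. At 24 h the third mouse was again apart, with 10.6 FPKM against 21.6 and 25.8 FPKM in the others (log2 fold change 0.04, limma adjusted p = 0.916), and without it the difference was 0.40 (adjusted p = 0.0313). At 72 h the mice had 55.4, 34.0 and 37.6 FPKM, all above sham (log2 fold change 1.19, SE 0.16, limma adjusted p = 0.000176).

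In several groups a single mouse was the highest or the lowest in many of the 10 genes. With 3 mice 1 is always the highest in a gene, and the share over all genes was not counted. In sham the first mouse was the lowest in 7 genes and the third the highest in 7. At 72 h the first mouse was the highest in 7 and the second the lowest in 7. At 6 h the third mouse was the highest of its group in 7 genes. At 24 h the third mouse was the lowest in Lyve1, Timd4, Folr2, Mrc1, Cbr2 and Gas6 and the highest in Stab1, Mertk and Axl. The highest values at 24 h were spread evenly, with 3, 4 and 3 genes in the 3 mice. The summed FPKM of 7 neutrophil genes (S100a8, S100a9, Csf3r, Cxcr2 and others) was 216, 45.3 and 996 in the 24-h mice, and that of monocyte genes 239, 161 and 758, so the third 24-h mouse was also the highest in both. At 6 h the neutrophil sums were 1001, 117 and 377, highest in the first mouse, and in sham they were 2.56 to 5.28. The part of these cells in the spread of the 10 genes was not tested.

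Mertk, the TAM receptor best known for efferocytosis by macrophages (chromosome 2, 128698915 to 128803162, plus strand), was the least abundant of the 10 in sham, with 2.66, 2.03 and 2.69 FPKM. At 6 h it had 3.60, 3.63 and 3.19 FPKM, all above sham (log2 fold change 0.38, SE 0.11, limma adjusted p = 0.0450), a call kept under 6 of 14 other settings. It was lost without the first, second or the third sham mouse (adjusted p = 0.0935, 0.145 and 0.0881) and without the first or second 6-h mouse (0.0899 and 0.0884). At 24 h it stood at 3.54, 2.68 and 4.74 FPKM, overlapping sham in 1 mouse (log2 fold change 0.41, limma adjusted p = 0.108). At 72 h it reached 6.91, 6.83 and 8.01 FPKM (log2 fold change 1.26, SE 0.11, limma adjusted p = 8.01e-06), and every 72-h mouse was above every earlier one.

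Axl, the TAM receptor that is also found on stromal and endothelial cells (chromosome 7, 25756500 to 25788924, minus strand), changed late. Sham mice spread over 27.2, 44.1 and 27.8 FPKM, and the 6-h mice with 33.1, 42.1 and 31.5 FPKM overlapped them (log2 fold change 0.13, 95% interval -0.34 to 0.59, limma adjusted p = 0.648). At 24 h the levels were 51.6, 36.8 and 60.2 FPKM (log2 fold change 0.58, SE 0.24, limma adjusted p = 0.0926). Leaving out the second 24-h mouse brought a call (0.77, adjusted p = 0.0483). At 72 h they were 94.7, 63.7 and 93.0 FPKM, all above every earlier mouse (log2 fold change 1.33, SE 0.21, limma adjusted p = 0.000375).

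Gas6, the bridging ligand of the TAM receptors, is made by stromal and vascular cells as well as by macrophages (chromosome 8, 13465374 to 13494535, minus strand). Its 6-h mice had 21.7, 21.3 and 22.8 FPKM against 29.6, 31.7 and 32.9 FPKM in sham, all lower (log2 fold change -0.50, SE 0.08, limma adjusted p = 0.00484), and the call was made under all 14 other settings. At 24 h it had 27.0, 29.4 and 20.1 FPKM, all below sham though not called (log2 fold change -0.30, limma adjusted p = 0.129). At 72 h the mice had 38.5, 30.9 and 37.5 FPKM (log2 fold change 0.17, 95% interval -0.04 to 0.38, limma adjusted p = 0.119). Leaving out the second 72-h mouse brought a call (0.27, adjusted p = 0.00848). Of the ligand and its receptors Mertk and Axl, the ligand had the smallest fitted change at 72 h. The ratio of Axl to Gas6 was 1.05 ± 0.297 in sham, 1.63 ± 0.310 at 6 h and 2.33 ± 0.237 at 72 h, and that of Mertk to Gas6 was 0.0786 ± 0.0133, 0.159 ± 0.0163 and 0.205 ± 0.0220 (SD, n = 3). At 72 h both ratios were above every sham mouse.

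Between the AMI times, which do not involve the sham mice, the main step came after 24 h. From 6 h to 24 h Stab1 alone was called higher, 1 of 10 beside 12.5% of all genes, and 0 of 10 were called lower by limma, beside 1.94%. Of the 10, 3 had an unadjusted p under 0.05, beside 4855 of 13328 genes. The Stab1 difference was 0.94 (SE 0.13, limma adjusted p = 0.0137), with all 24-h mice above all 6-h mice. It was lost without the second or the third 6-h mouse (adjusted p = 0.0633 and 0.0501) or the second 24-h mouse (0.0601). Over all genes this comparison gave 1664 higher and 258 lower as deposited, 403 and 368 under median-of-ratios scaling and 372 and 270 under quantile normalization.

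From 24 h to 72 h 7 of 10 were called higher, beside 29.7% of all genes, and Lyve1 lower, 1 of 10 beside 13.5%. The median difference of the 10 genes was 0.80, beside 0.13 over all genes. Stab1 (2.24), Folr2 (2.11), Mrc1 (1.72) and Mertk (0.85) were called under all 14 other settings. Cbr2 (1.14, limma adjusted p = 0.0245), Axl (0.75, adjusted p = 0.0280) and Gas6 (0.48, adjusted p = 0.0470) were called under 10, 8 and 4 of the 14, and each lost its call without the first and without the third 72-h mouse (adjusted p from 0.0579 to 0.147). Axl also lost it without the first or second 24-h mouse (0.0622 and 0.0717), and Gas6 without the first or the third 24-h mouse (0.0755 and 0.0563) or the second 72-h mouse (0.0539). Lyve1 (-0.84, SE 0.29, adjusted p = 0.0481) overlapped between the groups and lost its call without the second or the third 72-h mouse or the first or second 24-h mouse, with adjusted p from 0.102 to 0.156. Over all genes, 3963 were higher and 1799 lower as deposited, 3144 and 2741 under median-of-ratios scaling, and 2804 and 3345 under quantile normalization.

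From 6 h to 72 h, the comparison added after the values had been seen, 7 of 10 were called higher, beside 50.3% of all genes, and Lyve1 and Cd163 lower, 2 of 10 beside 16.7%. The largest differences were those of Stab1 (3.18, SE 0.10, limma adjusted p = 3.29e-07) and Folr2 (2.44, SE 0.21, limma adjusted p = 2.68e-05). Cd163 differed by -0.60 (SE 0.22, limma adjusted p = 0.0437) with overlapping groups, and its call was lost without the second or the third mouse of either time, with adjusted p from 0.0651 to 0.150. Timd4 was not called (0.36, 95% interval -0.20 to 0.91, limma adjusted p = 0.219). Gas6 was called (0.67, limma adjusted p = 0.000787) except under median-of-ratios scaling (0.27, adjusted p = 0.0654). The all-gene splits were 6712 higher and 2229 lower, 4245 and 4070, and 3840 and 4578 in the order of scalings above.

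The order of the 10 genes by level per length changed over the course. In sham Stab1 (mean 41.5 FPKM) was followed by Axl (33.0), Gas6 (31.4) and Lyve1 (31.0), neighbours whose mice overlapped, then Cbr2 (17.6), Folr2 (11.2), Mrc1 (9.77), Cd163 (4.15), Timd4 (3.03) and Mertk (2.46). Among the latter, Folr2 overlapped Mrc1 and Timd4 overlapped Mertk. Lyve1 had the highest mean at 1 h (43.9 FPKM, overlapping Axl with 43.4) and at 6 h (48.7 FPKM, overlapping Axl with 35.6). Its 1-h and 6-h mice overlapped, and these 2 times were not compared by a test. At 72 h Stab1 (286) stood clear of Axl (83.8), Axl overlapped Mrc1 (66.6), and Lyve1 was the seventh with 18.1 FPKM, clear of Gas6 (35.6) above it and Mertk (7.25) below it.

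Since macrophage genes as a whole rose, each gene was also expressed as a percent of the mean FPKM of the 10 pan-macrophage genes in the same mouse. That mean itself went from 21.2 FPKM in sham to 442 FPKM at 72 h, so nearly any gene is lower on this scale at the late times. By that measure 5 of 10 genes at 6 h and all 10 at 24 h and at 72 h had every AMI mouse below every sham mouse, beside 20.5%, 87.3% and 93.8% of the 13333 genes above the FPKM filter. The counts at 24 h and 72 h are therefore no result about these genes. At 72 h the mean fell furthest for Timd4, to 0.0240 of its sham value, and for Lyve1, to 0.0285, and least for Mrc1 (0.334) and Stab1 (0.334). Lyz2, a gene that neutrophils and monocytes also express strongly, held between 52.7% and 74.5% of the sum of this list on average per group. Against Csf1r and Adgre1 alone, a receptor and an adhesion receptor closer to the macrophage lineage, the counts below every sham mouse were 1 at 6 h, 3 at 24 h and 8 at 72 h, beside 4%, 60.7% and 87.7% of all genes. The mean of this pair went from 23.3 FPKM in sham to 16.9 at 6 h, 39.8 at 24 h and 159.6 at 72 h. On that scale Mrc1 and Stab1 at 72 h were at 1.00 and 1.01 of sham, Folr2 at 0.569, Mertk at 0.431, Axl at 0.368, Cbr2 at 0.351, Cd163 at 0.192, Gas6 at 0.166, Lyve1 at 0.0854 and Timd4 at 0.0729. At 6 h Cd163 (2.88), Mrc1 (2.41), Lyve1 (2.18) and Mertk (1.99) were above every sham mouse on the same scale, as were 45.5% of all genes, where the main scale gave overlap for these 4. Csf1r itself was lower at 6 h, with 32.9 ± 5.20 FPKM against 45.3 ± 1.36 in sham (limma adjusted p = 0.0247), so the 6-h result depended on the reference. These ratios do not separate resident cells from cells that entered.

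**Figure D4:**
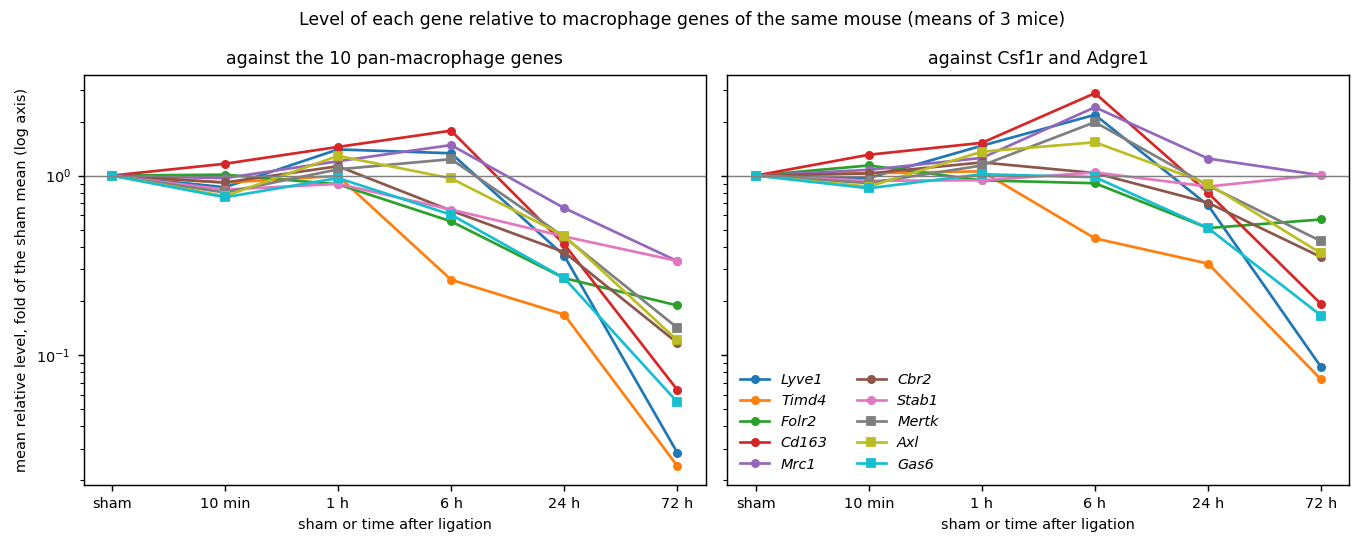
Mean level of each gene relative to macrophage genes of the same mouse, as fold of the sham mean (vertical log axis), over sham and 5 times; the left panel uses 10 pan-macrophage genes and the right panel Csf1r and Adgre1. At 72 h all 10 lines are below 1 on the left, where every 72-h mouse was below sham in 93.8% of all genes, while on the right Mrc1 and Stab1 are at 1.00 and 1.01 and Lyve1 and Timd4 at 0.0854 and 0.0729.

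Other genes of resident macrophages were mostly higher at 72 h. This list and those below were chosen with earlier results of these data known, so their counts are a description. Of 14 tested, 13 were higher and 1 was lower by limma, beside 53.1% and 24.2% of all genes, with a median log2 fold change of 1.82 beside 0.29 for all genes. Pf4, a chemokine of platelets and resident macrophages, went from 16.9 ± 2.25 FPKM in sham to 189 ± 10.2 at 72 h (log2 fold change 3.41). The transcription factor Maf went from 14.4 ± 2.76 to 108 ± 3.89 FPKM (2.84). F13a1, coagulation factor XIII chain A, went from 18.4 ± 2.47 to 81.2 ± 5.49 FPKM (2.09). Sepp1, selenoprotein P, was lower at 6 h (181 ± 4.29 FPKM against 224 ± 5.79, limma adjusted p = 0.0118) and at 24 h (134 ± 33.6 FPKM) before it reached 648 ± 177 FPKM at 72 h (1.49). The 1 lower gene was Retnla, a marker of alternatively activated macrophages, with 6.03 FPKM in sham, 1.06 at 24 h and 1.25 at 72 h on average (log2 fold change at 72 h -1.71, limma adjusted p = 0.000396). At 6 h 3 of 14 were higher (F13a1 and Ninj1 among them), beside 11.6% of all genes, and 3 lower (Cx3cr1, Ltc4s and Sepp1), beside 16.8%. The median at 6 h was -0.10, beside -0.08 for all genes. At 24 h 6 were higher, beside 26.2%, and 2 lower (Retnla and Sepp1), beside 11.4%.

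The other receptors and bridging proteins of efferocytosis were higher at 72 h in 14 of 17 tested (53.1% of all genes were), 1 was lower, and the median log2 fold change was 1.88 beside 0.29. Tyro3, the remaining TAM receptor, went from a mean of 1.16 to 6.96 FPKM (log2 fold change 1.88, limma adjusted p = 4.67e-07), and Pros1, which encodes protein S, from 7.96 to 20.2 FPKM (1.24, limma adjusted p = 4.15e-06). The 3 chains of the opsonin C1q rose together: C1qa went from 84.5 ± 8.09 to 769 ± 113 FPKM, C1qb from 52.4 ± 6.83 to 678 ± 107 FPKM and C1qc from 61.2 ± 5.17 to 583 ± 81.1 FPKM, with log2 fold changes of 3.16 to 3.66. Cd36, a scavenger and fatty acid receptor that cardiac muscle and endothelium also express, was the 1 lower gene, with 401 ± 17.0 FPKM in sham, 567 ± 35.8 at 6 h, where it was called higher (limma adjusted p = 0.00438), while its 72-h level was 213 ± 16.4 (log2 fold change -0.92, limma adjusted p = 1.06e-05). Cd300lf, a receptor for phosphatidylserine and ceramide, was listed at 0 in the sham mice and had a mean of 15.5 FPKM at 6 h, 23.1 at 24 h and 15.9 at 72 h. It passed the filter only through AMI mice and could not be called lower than sham. Thbs1, thrombospondin 1, which can bridge dying cells to CD36 and integrins, had 2.54 FPKM in sham and 127, 134 and 120 FPKM at 6, 24 and 72 h. At 6 h 5 of 17 were higher (Cd36, Cd300lf, Itgb3, Pros1 and Thbs1), beside 11.6% of all genes, and 2 lower (C1qc and Scarf1), beside 16.8%. At 24 h 10 were higher, beside 26.2%, and 0 lower, beside 11.4%. Of the 17, 12 had an unadjusted p under 0.05 at 24 h, beside 6700 of 13327 genes.

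Inside the cell, the engulfment machinery was higher at 72 h in 9 of 9 genes, beside 53.1% of all genes, with a median log2 fold change of 1.05 beside 0.29. Those restricted to blood cells, Rac2 (1.20 to 24.5 FPKM), Vav1 (0.599 to 15.2) and Dock2 (0.534 to 10.9), had log2 fold changes of 2.96 to 3.53. The widely expressed Rac1 (175 to 276 FPKM), Crk (24.4 to 39.5) and Dock1 (17.0 to 21.7) had 0.32 to 0.67. The sham means of Vav1 and Dock2 were under the filter of 1 FPKM, which favoured a higher call for them. Their part in the 9 of 9 is therefore no separate result. Gulp1, an adaptor of engulfment receptors, was the 1 gene of this list that was lower at 6 h (3.40 to 1.51 FPKM, limma adjusted p = 0.00843), beside 16.8% of all genes. Of 9 genes that handle lipid after uptake, 5 were higher and 0 lower at 72 h, beside 53.1% and 24.2% of all genes. Their median was 0.28 beside 0.29 for all genes. The 5 were the cholesterol exporters Abca1 (19.0 ± 1.54 to 94.3 ± 9.16 FPKM) and Abcg1, the mitochondrial carrier Ucp2, the transporter Abca7 and Nr1h3, which encodes LXR alpha. Rxra, the shared partner of these nuclear receptors, was lower at 6 h and 24 h and had 40.4 ± 2.67 FPKM at 72 h against 44.1 ± 0.655 in sham (limma adjusted p = 0.110).

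Genes that restrain uptake were higher at the same time. All 4 tested were higher at 72 h, beside 53.1% of all genes, with a median log2 fold change of 1.29 beside 0.29. Cd47, the signal against being eaten, went from 19.9 ± 0.589 to 40.9 ± 1.56 FPKM and its receptor gene Sirpa from 25.8 ± 1.44 to 236 ± 24.0 FPKM. The sheddases Adam17, which cleaves MERTK, and Adam10 went from 25.2 ± 3.28 to 63.8 ± 4.16 and from 25.1 ± 1.26 to 61.8 ± 5.14 FPKM. At 6 h Cd47 was the 1 of 4 called higher (25.1 ± 1.83 FPKM, limma adjusted p = 0.0267), beside 11.6% of all genes. At 24 h Cd47 and Sirpa were, beside 26.2%.

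**Figure D5:**
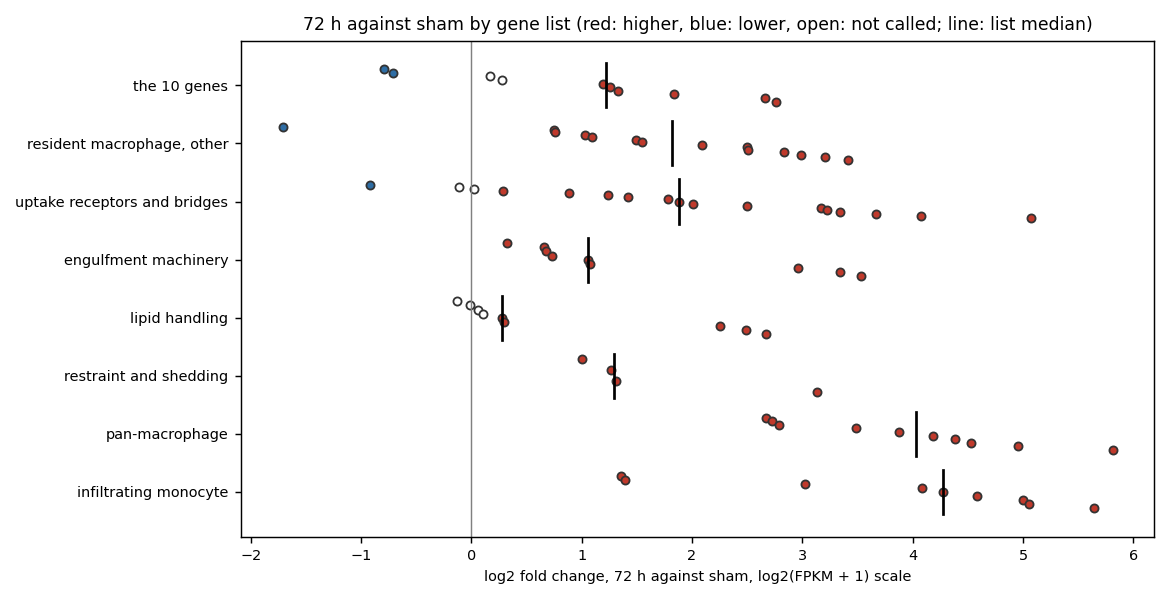
Log2 fold change at 72 h against sham (horizontal axis, log2(FPKM + 1) scale) for each tested gene of 8 lists; red points are called higher, blue lower and open points are not called, and the black lines are list medians. The 10 genes spread from -0.79 to 2.76 around a median of 1.22, below the medians of the pan-macrophage (4.03) and monocyte (4.27) lists.

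Marker genes of other cells moved with these results. At 72 h all 10 pan-macrophage genes, all 9 tested monocyte genes and all 8 fibroblast genes were higher, with medians of 4.03, 4.27 and 3.70. Summed fibroblast markers went from 259 to 292 FPKM in sham to 3823 to 4942 at 72 h, and those of neutrophils were 55.1 to 68.0 FPKM at 72 h. All 8 cardiomyocyte genes were lower (median -1.64), and of 8 endothelial genes 1 was higher (Cldn5) and 4 were lower (Emcn, Kdr, Tek and Tie1). At 6 h the pan-macrophage list had 3 of 10 higher (Cd14, Fcgr1 and Itgam) and 1 lower (Csf1r). The monocyte list had 8 of 9 higher and the neutrophil list 6 of 6. Over all genes 11.6% were higher and 16.8% lower at 6 h. The 7 neutrophil genes together summed to only 2.56 to 5.28 FPKM in sham. Genes that low could hardly be called lower, so their 6 of 6 is no separate result. At 72 h 3 of 6 genes of smooth muscle and pericytes were higher (Cnn1, Pdgfrb and Tagln) and 3 lower (Kcnj8, Myh11 and Rgs5). Their share called higher was close to the 53.1% of all genes. Of 4 genes of T, B and dendritic cells 3 were higher (Cd209a, Cd79a and Flt3) and 1 lower (Zbtb46). The 8 listed genes of these cells summed to 5.1 to 6.2 FPKM in sham, a low level that favours higher calls. Of 5 red cell genes 0 were higher and 2 lower (Alas2 and Hba-a2). The part of these cells in the levels of the 10 genes was not tested.

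Across the 18 mice, the genes most alike to each of the 10 by Pearson correlation of log2(FPKM + 1) were looked up among all tested genes. For Stab1 they were Adgre1 (r = 0.994), Serpinf1 and Gusb, for Mrc1 Ms4a6b (0.982), Iqgap2 and Sox9, for Folr2 Gpr34 (0.973), Ephb6 and Ppt1, and for Mertk Fcgr4 (0.959), AI607873 and Tgfbr1. For Cbr2 they were Tbc1d9b (0.931), Cenpq and Scrn1, for Gas6 Abca9 (0.918), Steap3 and Pik3r2, and for Axl Ddhd1 (0.914), Azin2 and Zeb2os. Lyve1 was most like Zbtb16 (0.911), Fmo2 and Homer1, Timd4 most like Antxr2 (0.891), Pfkfb2 and Abca8b, and Cd163 most like Syn2 (0.835), C7 and Hif3a. Among the 10 themselves, Folr2 and Stab1 had r = 0.901 and Lyve1 and Stab1 r = -0.762. These correlations are across mice of 6 groups and largely carry the differences between times.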

How the data were processed

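RNA-seq values of 18 mouse hearts (6 groups of 3) were analysed. Per the labels and the study's methods, the authors used cutadapt 1.18 for trimming, HISAT2 2.1.0 for alignment to mm10 and StringTie 1.3.4d for expression estimates, deposited as a table of FPKM by gene symbol. Cufflinks and Cuffdiff are also named, and the annotation is not given in the sources used here. All 18 value columns were used, 3 of the 1-h group and 1 of the 6-h group having misspelt headers that matched only 1 title each. Groups came from the sample titles. No label says how animals were housed or batched, and p-values measure only the spread between these mice.

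Genes that stayed below 1 FPKM in every mouse were left out. Log2(FPKM + 1) was compared in R 4.3.3 with limma 3.58.1 (lmFit, eBayes with trend, two-sided) on the 6 mice of each comparison, and p-values were adjusted by Benjamini-Hochberg across every gene tested, with a threshold of 0.05. In simulated data, changes were planted only in genes above a set level, and every group had the spread of the sham mice. The planted changes were larger than any change of the 10 genes at 6 h. Of 200 changed genes 197 were recovered for the 6-h comparison with sham, with 10 false among 11936 genes. For the 72-h comparison 198 of 200 were recovered, with 8 false among 11937. Recovery in the measured mice, at the sizes and spreads given above for the 10 genes, was not tested. Alternatives were a pseudocount of 0.1, no filter, a mean of at least 1, quantile normalization, median-of-ratios scaling, 1 fit with all 18 mice, the replicate block, no trend and leaving out each mouse. For the ratios to macrophage genes they were other reference genes. The comparison of 72 h with 6 h and a reference without Lyz2 were added after the data were seen. The genes and lists were chosen with earlier results of these data known. Named were all 10 genes, up to 4 genes of each other list by mean FPKM, genes needed to account for counts of 5 or fewer, and the 3 genes most alike to each. Tyro3, Vav1 and Dock2 were named beyond this rule for their roles, after their values were seen. 1 gene that this rule would name, among the other resident macrophage genes higher at 6 h, is not reported here. Positions and upstream sequences came from RefSeq on GRCm38.p6. Python 3.11.15, numpy 2.4.6, pandas 2.3.3 and matplotlib 3.10.9 were used for ratios and plots.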

Additional observations from a re-analysis of the deposited data

Results flagged for a closer look

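For 3 of the 10 genes, the changes against sham at a pair of times had opposite signs with every mouse on its own side. The same held for 23.3% of the 13333 genes above the FPKM filter, so the count itself is close to that of all genes. Lyve1 was above sham in all 3 mice at 6 h and below it in all 3 at 72 h, and its log2 fold changes differed by -1.42 between these times (limma adjusted p = 0.000778 from the 6 mice of 72 h and 6 h). Folr2 was above sham at 10 min and below it at 6 h, a difference of -0.86 that was not tested directly, and then above it at 72 h, a difference from 6 h of 2.44 (limma adjusted p = 2.68e-05). Stab1 was below sham at 6 h and above it at 24 h and 72 h, with differences from 6 h of 0.94 (limma adjusted p = 0.0137) and 3.18 (limma adjusted p = 3.29e-07). The 24-h difference of Stab1 lost its call without single mice, as given above. Pairs were flagged by the positions of these same mice, so the 2 groups of a pair cannot overlap. The p-values given here are therefore no separate support.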

How the results depend on the processing

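Over 1120 fits of a gene and comparison under an alternative, 1041 stayed on their side of the threshold, 64 lost a call and 15 gained one. While 0 changed the sign of a call, results that were not called could change sign. Axl at 10 min ran from -0.19 to 0.15. Median-of-ratios scaling gave 2 genes lower at 6 h, 2 lower at 24 h and 4 higher from 24 h to 72 h. Quantile normalization gave 2 lower at 24 h. All 18 mice in 1 fit gave 2 higher at 6 h, 4 higher and 2 lower at 24 h and 1 lower from 6 h to 24 h. Without a filter 4 were higher and 0 lower from 24 h to 72 h, and 1 lower from 6 h to 72 h. Against Csf1r and Adgre1, 1 gene at 6 h and 3 at 24 h were below every sham mouse. The causes were not tested.

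With single mice left out, the counts ranged as follows. At 1 h 0 to 1 were higher. At 6 h 1 to 4 were higher and 2 to 4 lower. At 24 h 1 to 5 were higher and 0 to 2 lower. From 6 h to 24 h 0 to 1 were higher and 0 to 1 lower. From 24 h to 72 h 4 to 7 were higher and 0 to 1 lower, and from 6 h to 72 h 1 to 2 were lower.

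Replicate numbers did not pair the mice: no comparison had all 3 correlations of same-numbered deviations over 0.1, and from 6 h to 24 h they were -0.27, 0.41 and -0.33. With the replicate block 0 genes were higher from 6 h to 24 h (Stab1 0.94, limma adjusted p = 0.0770), 1 was lower from 6 h to 72 h, and over all genes the calls from 6 h to 24 h went from 1664 higher to 1. The values are FPKM without counts, so low genes such as Timd4 carry a counting error that is not known.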
